A study of Rattus norvegicus with 16 samples.

Results

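Paired box factors were followed in 832/13 INS1 β cells, a rat insulinoma line, that carried a *Pax5* or a *GFP* lentiviral vector. The 5 genes described are *Pax5*, *Pax6*, *Pax4*, *Pax2* and *Pax8*. They were chosen by name, as the transcript clusters to which the array annotation gives 1 of these symbols, out of 15037 named genes and 23188 clusters on the array. Each symbol had 1 cluster. The 8 Pax5 arrays hold RNA of cells transduced with the *Pax5* vector, and the 8 GFP arrays hold RNA of cells transduced with the *GFP* vector. Both groups share the parent line, a multiplicity of infection of 1.25 for 24 h, a further 48 h of culture, 11.1 mM glucose and collection at 72 h. The labels number 8 experiments, each with 1 Pax5 and 1 GFP array. Untransduced cells were not analysed here, and no source used here gives the species of the *Pax5* cDNA. The study used lentiviral vectors that encode Pax5 with an HA tag, a short peptide label, under a human phosphoglycerate kinase 1 promoter. It repeated its secretion experiments with untagged Pax5. Which *Pax5* vector the arrays used, and whether the *GFP* vector had the same promoter, is not stated here.

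Pax proteins bind DNA through a paired domain. Pax2, Pax5 and Pax8 form a subfamily with closely related paired domains, and are known from midbrain, kidney, thyroid and inner ear, with Pax5 acting in B lymphocytes as the factor that holds B cell identity. Pax4 and Pax6 carry a paired domain and a complete homeodomain and act in the endocrine pancreas, where Pax6 maintains hormone genes and β cell identity in adult islets and Pax4 acts mainly in the developing β cell lineage as a repressor.

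The regions just upstream of the transcription start are printed for *Pax6* and *Pax4*, the relatives whose levels differed between the groups. They are the 250 bases before the start in RefSeq (GRCr8), 5′ to 3′ on the strand of the gene, with the 50 bases nearest to the start in capitals. The *Pax6* window lies at chr3:112590346-112590595 on the plus strand and the *Pax4* window at chr4:58028859-58029108 on the minus strand.
Pax6: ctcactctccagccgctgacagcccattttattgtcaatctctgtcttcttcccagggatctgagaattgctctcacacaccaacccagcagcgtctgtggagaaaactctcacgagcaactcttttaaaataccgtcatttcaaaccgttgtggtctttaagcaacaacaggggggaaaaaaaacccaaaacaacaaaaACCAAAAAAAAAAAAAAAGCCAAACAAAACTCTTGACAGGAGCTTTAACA
Pax4: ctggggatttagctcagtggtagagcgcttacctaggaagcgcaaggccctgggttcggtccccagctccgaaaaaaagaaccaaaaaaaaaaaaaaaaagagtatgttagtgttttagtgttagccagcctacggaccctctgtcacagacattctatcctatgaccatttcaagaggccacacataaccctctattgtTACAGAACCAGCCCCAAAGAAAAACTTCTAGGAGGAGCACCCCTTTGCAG
Bases G and C make up 42.0% of the *Pax6* window and 46.4% of the *Pax4* window, against 71.2% for *Pax2*, 60.8% for *Pax8* and a median of 51.2% over 33469 promoters. A pair of motifs was searched on both strands over these windows and the 50 bases after the start, 300 bases in all. GCGTGAC, part of the sequence that Pax2, Pax5 and Pax8 recognise, was in 669 of the promoters (2.0%), and TTCACGC, part of the sequence that Pax6 recognises, was in 432 (1.29%). Neither was in the windows of *Pax6*, *Pax4*, *Pax2* and *Pax8*, which says only that these letters are not in these windows. No promoter of *Pax5* was matched in the table, so its window is not shown.

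Each value is a log2 signal that the authors made with RMA (robust multi-array average), and a difference of 1 is a doubling of signal. Array medians lay between 6.98 and 7.01, and the lowest correlation between 2 arrays was 0.9892. β Cell genes were bright, as the label asks: the mean over 8 of 10 β cell markers found by name was 15.30 to 15.51 in Pax5 arrays and 15.41 to 15.59 in GFP arrays. B lymphocyte markers were dim, with a mean over *Cd79b*, *Ptprc* and *Cd22* of 5.14 to 5.28 in Pax5 arrays and 5.15 to 5.30 in GFP arrays, and none of the 3 was called. In bulk RNA, fewer cells of a type and less RNA per cell cannot be told apart. The labels do not say that the experiments were separate cultures. A p-value here therefore rests on the spread of the differences within the 8 numbered experiments, which may be technical, and their number limits the precision. Genes high for their group in a Pax5 array tended to be low in the GFP array of the same number (correlations of -0.749 to -0.704). At the same spread within each group, mirrored values give wider differences within experiments than unrelated values would. Why the values were mirrored was not tested, so the spread cannot be read as variation among experiments alone.

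*Pax5* itself, the vector's cargo, serves as a check of the labels. Its log2 value lay between 17.02 and 17.56 (median 17.20) in Pax5 arrays, against 7.23 to 8.39 (median 7.965) in GFP arrays. All Pax5 arrays were far above all GFP arrays. Averages were 17.26 ± 0.191 in Pax5 arrays and 7.928 ± 0.409 in GFP arrays (SD, n = 8 each), a log2 difference of 9.33 (SE 0.153), or a 643-fold higher signal (95% interval 513 to 805). No other cluster had as large a difference. The cluster cannot separate vector RNA from RNA of the cells' own gene, and bright signals are compressed on arrays, so the fold is one of signal.

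The *Pax5* difference varied between experiments. It was 10.33 in experiment 1 and 9.92 in experiment 2, the highest values, then 9.01, 9.55, 8.95, 9.46, 8.78 and 8.63 in experiments 3 to 8. Both arrays of an experiment contributed to this range. Over the 8 experiments, the *Pax5* values of the Pax5 and GFP arrays correlated at -0.944. The difference is therefore not a measure of vector *Pax5* alone, and why the GFP arrays moved the other way was not tested. Experiment 1 had the highest *Pax5* value of the Pax5 arrays (17.56) and the lowest of the GFP arrays (7.23), while experiment 8 had the lowest of the Pax5 arrays (17.02) and the highest of the GFP arrays (8.39).

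**Figure D1:**
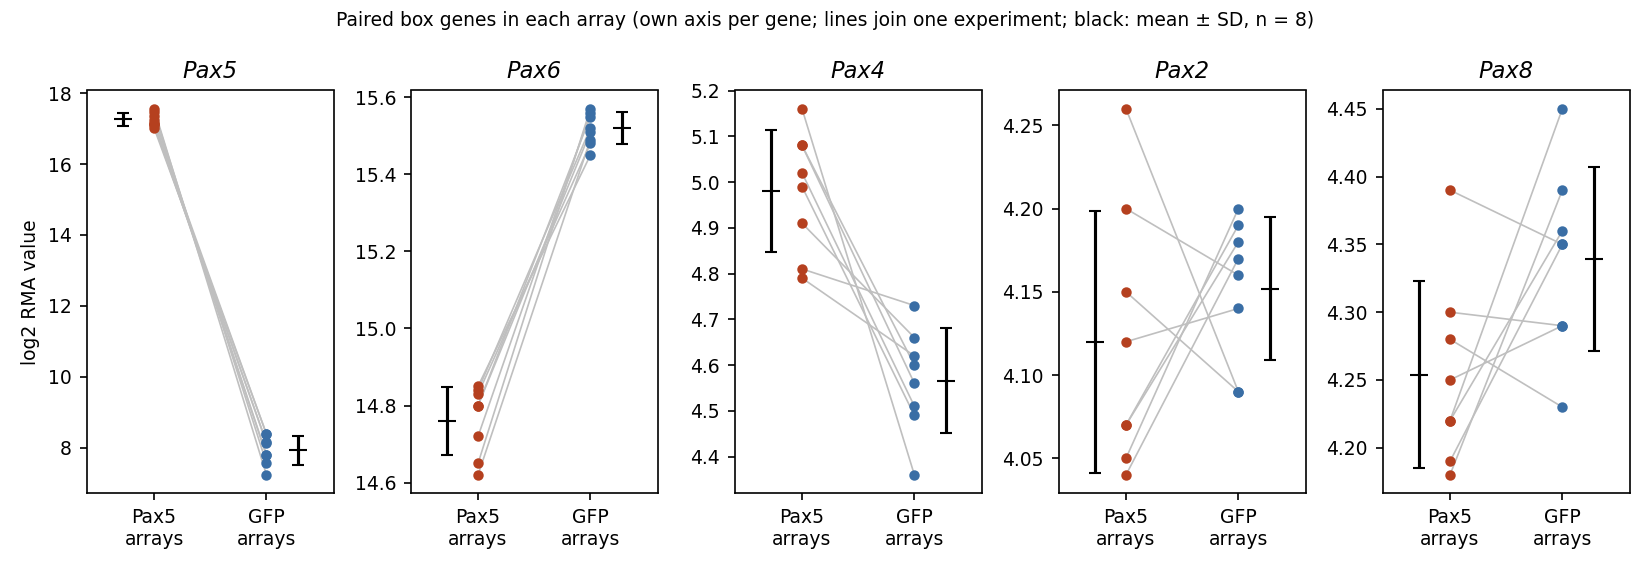
Log2 RMA value (vertical axis, its own range for each gene) of 5 paired box genes in the 8 Pax5 arrays (left) and the 8 GFP arrays (right). Grey lines join arrays of 1 experiment and black bars show the mean ± SD. The groups are apart for *Pax5* (17.26 against 7.928), *Pax6* (14.76 against 15.52) and *Pax4* (4.98 against 4.566) and overlap for *Pax2* and *Pax8*.

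*Pax6* fell and *Pax4* rose in Pax5 cells, while *Pax2* and *Pax8* did not pass the test. Thus 2 of the 4 relatives were called at an adjusted p under 0.05, beside 30.7% of all clusters (14.6% higher and 16.1% lower), and a count of 2 of 4 is not read as a property of the family. *Pax6* and *Pax4* were also the relatives whose groups did not overlap, beside 16.7% of all clusters (8.08% higher and 8.62% lower). Differences ran one way in every experiment for 20.4% of clusters (9.79% higher and 10.6% lower).

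*Pax6*, the paired box factor that maintains hormone genes in adult islets, was at the upper end of the brightness range (percentile 97.9 of all clusters). Its log2 value was 14.65, 14.62, 14.83, 14.84, 14.72, 14.80, 14.85 and 14.80 in the Pax5 arrays of experiments 1 to 8. In the GFP arrays it was 15.57, 15.49, 15.48, 15.52, 15.56, 15.55, 15.45 and 15.51. The highest Pax5 array was thus below the lowest GFP array by more than the spread within either group. Averages were 14.76 ± 0.0893 in Pax5 arrays and 15.52 ± 0.0421 in GFP arrays (SD, n = 8 each). The log2 difference was -0.75 (SE 0.0651, 95% interval -0.89 to -0.61), so that the signal in Pax5 cells was 0.594 times that in GFP cells (0.539 to 0.653), with an adjusted p of 3.17e-07 in limma. *Pax6* was lower in 8 of 8 experiments, with differences between -0.92 and -0.60, and an exact two-sided sign-flip test over the experiments gave p = 0.00781, the smallest it can give. Among all clusters, 462 had a lower log2 difference.

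*Pax4*, the repressor of the early β cell lineage, was dim, at percentile 17.7 of brightness. Its log2 value was 5.16, 5.08, 4.81, 5.08, 4.91, 4.99, 4.79 and 5.02 in the Pax5 arrays of experiments 1 to 8. In the GFP arrays it was 4.36, 4.60, 4.73, 4.56, 4.66, 4.49, 4.62 and 4.51. The lowest Pax5 array (experiment 7) stood just above the highest GFP array (experiment 3). Averages were 4.98 ± 0.133 in Pax5 arrays and 4.566 ± 0.114 in GFP arrays (SD, n = 8 each), with a log2 difference of 0.41 (SE 0.0811, 95% interval 0.24 to 0.59). This is a 1.33-fold higher signal (1.18 to 1.5), with an adjusted p of 0.000981 in limma. All 8 experiments were higher, from 0.08 in experiment 3 to 0.80 in experiment 1, and the exact sign-flip p was 0.00781. Of the dimmest 30% of clusters, to which *Pax4* belongs, 5.43% were called higher, 4.05% were called lower and 1.91% were higher with groups that did not overlap. Without spot-level values, whether *Pax4* RNA was above background in either group was not tested.

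*Pax2* and *Pax8*, the nearest relatives of Pax5, were at the bottom of the brightness range (percentiles 3.44 and 6.49). *Pax2* lay between 4.04 and 4.26 (median 4.095) in Pax5 arrays, against 4.09 to 4.2 (median 4.165) in GFP arrays. The groups overlapped over the whole GFP range. The log2 difference of *Pax2* was -0.03 (SE 0.0652, 95% interval -0.17 to 0.11, adjusted p = 0.755 in limma), with 3 experiments higher and 5 lower. *Pax8* lay between 4.18 and 4.39 (median 4.235) in Pax5 arrays, against 4.23 to 4.45 (median 4.35) in GFP arrays. Its groups overlapped as well. The log2 difference of *Pax8* was -0.09 (SE 0.0651, 95% interval -0.22 to 0.05, adjusted p = 0.36 in limma), also with 3 experiments higher and 5 lower. These intervals leave room for changes of either gene up to their bounds.

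The change of *Pax6* differed from that of each other relative. Within experiments, the log2 difference of *Pax6* minus that of *Pax4* was -1.17 ± 0.317 (SD, n = 8), from -1.72 to -0.73. It was -0.72 ± 0.12 against *Pax2* and -0.67 ± 0.144 against *Pax8*. All 3 were below 0 in 8 of 8 experiments, and the exact sign-flip test gave p = 0.00781 for each, also after Benjamini-Hochberg adjustment over the 3 comparisons. As *Pax4*, *Pax2* and *Pax8* are dim and *Pax6* is bright, these are comparisons of changes in array signal and not of RNA levels. *Pax2* and *Pax8* differed by only -0.03 and -0.09, so the comparisons with them largely repeat the change of *Pax6* itself (-0.75).

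Of the paired box genes outside the 5, *Pax3*, *Pax7* and *Pax9* were on the array by name and *Pax1* was not. *Pax3*, a factor of neural crest and muscle precursors, averaged 5.555 ± 0.127 in Pax5 arrays and 5.25 ± 0.128 in GFP arrays (SD, n = 8 each), a log2 difference of 0.30 (SE 0.0831, adjusted p = 0.0105 in limma). *Pax7*, its relative in muscle stem cells, averaged 5.101 ± 0.124 in Pax5 arrays and 4.836 ± 0.11 in GFP arrays, a log2 difference of 0.27 (SE 0.079, adjusted p = 0.0178 in limma). Both were higher in 7 of 8 experiments, and the groups of both overlapped. Without experiment 2, *Pax7* was not called (0.20, adjusted p = 0.0554 in limma). *Pax9*, a factor of pharyngeal pouches and teeth, differed by 0.17 (SE 0.0846, adjusted p = 0.147 in limma). All 3 genes lay below the array medians in both groups, and *Pax7* and *Pax9* were among the dimmest 30% of clusters.

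**Figure D2:**
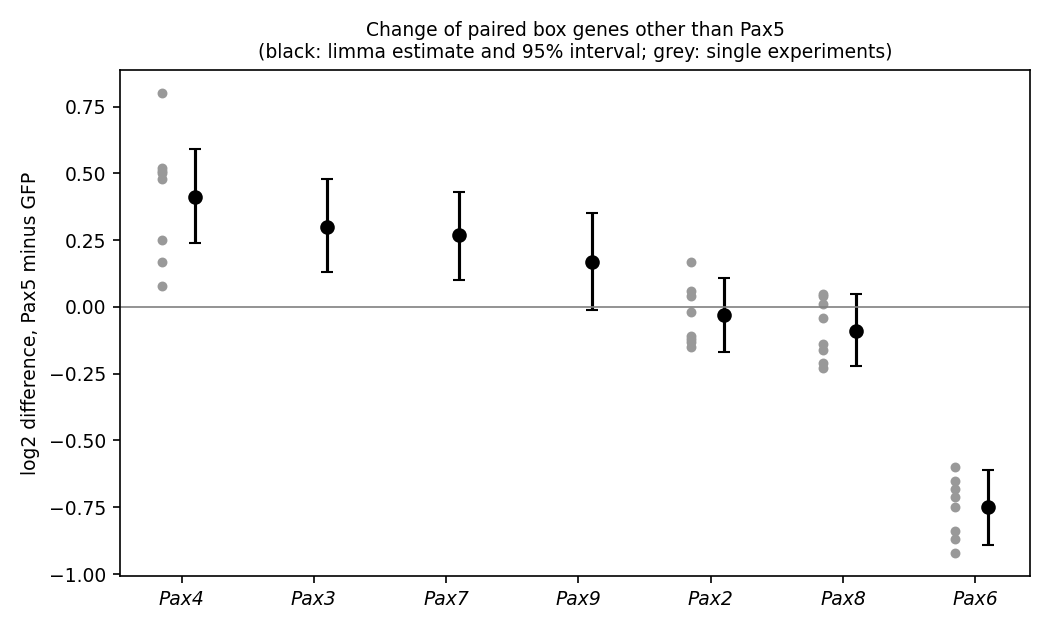
Log2 difference, Pax5 minus GFP (vertical axis), of 7 paired box genes other than *Pax5*. Black points and bars are the limma estimate and its 95% interval, and grey points are single experiments for *Pax4*, *Pax2*, *Pax8* and *Pax6*. *Pax6* is the gene below 0 with its whole interval (-0.89 to -0.61), and *Pax4*, *Pax3* and *Pax7* are above 0.

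Whether experiments with a larger *Pax5* difference had a larger change of a relative was asked over the 8 experiments, in 4 relations. For *Pax6*, Pearson's r was -0.709 (exact permutation p = 0.0536, Benjamini-Hochberg adjusted 0.107) and Spearman's rho was -0.619 (exact permutation p = 0.115, adjusted 0.46). For *Pax4*, r was 0.721 (exact permutation p = 0.0465, adjusted 0.107) and rho was 0.476 (exact permutation p = 0.243, adjusted 0.48). Neither passed the adjustment. Both rested on experiments 1 and 2, the pair farthest from the median *Pax5* difference: without them, r was -0.136 for *Pax6* (exact permutation p = 0.806) and 0.415 for *Pax4* (exact permutation p = 0.386). Without experiment 8, in contrast, r for *Pax4* was 0.924 (exact permutation, adjusted p = 0.0238). Correlations as far from 0 as those of *Pax6* and *Pax4* were found in 6.78% and 6.18% of all clusters. As for *Pax5*, values in the Pax5 and GFP arrays of the same number moved in opposite directions for *Pax4* (r = -0.771) and *Pax6* (r = -0.422). The 4 relations therefore cannot be read as relations to the amount of vector *Pax5*. For *Pax2*, r was -0.285 (exact permutation p = 0.49, adjusted 0.53) and rho was -0.19 (exact permutation p = 0.665, adjusted 0.665). For *Pax8*, r was -0.254 (exact permutation p = 0.53, adjusted 0.53) and rho was -0.381 (exact permutation p = 0.36, adjusted 0.48).

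Experiments 1 and 2 did not have the largest changes over the other called clusters. When the differences of each experiment over 7107 called clusters other than *Pax5* were regressed on the mean of the other experiments, the slope was 0.876 in experiment 1 and 0.777 in experiment 2. In experiments 3 to 8 it was 1.19, 1.17, 0.993, 1.09, 0.851 and 0.84. The *Pax6* difference was -0.92 in experiment 1 and -0.87 in experiment 2. In experiments 3 to 8 it was -0.65, -0.68, -0.84, -0.75, -0.60 and -0.71. Slopes below 1 thus went with the largest falls of *Pax6* (experiments 1 and 2) and with the smallest (experiment 7). Whether the fall of *Pax6* was related to the slope was not tested.

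**Figure D3:**
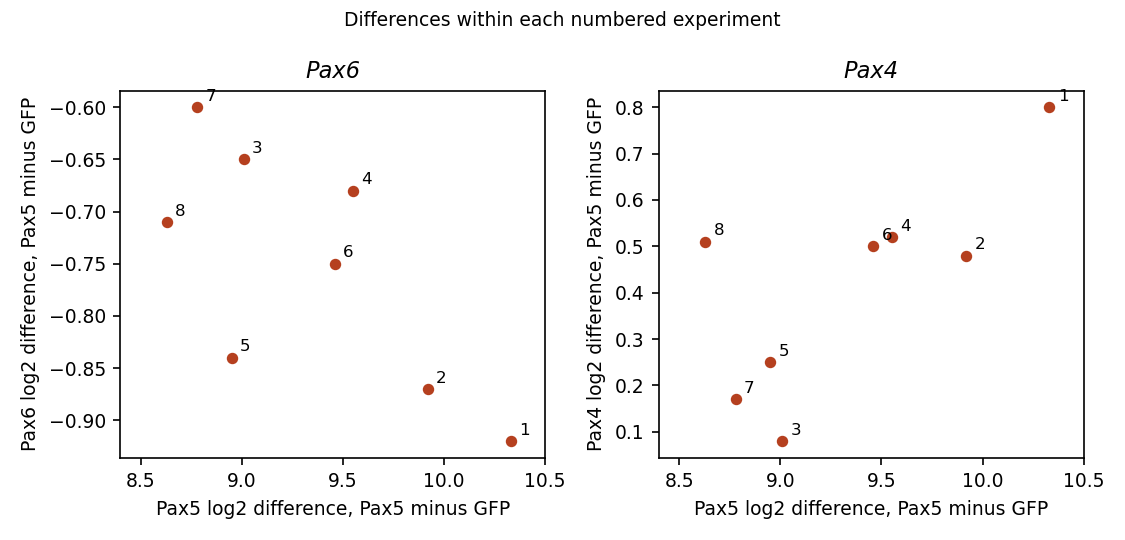
Log2 difference, Pax5 minus GFP, of *Pax6* (left, vertical axis) and *Pax4* (right, vertical axis) against that of *Pax5* (horizontal axis), 1 point for each of 8 numbered experiments. Experiments 1 and 2 lie at the far right (*Pax5* differences of 10.33 and 9.92), and without them r is -0.136 for *Pax6* and 0.415 for *Pax4*.

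Named genes with the array pattern most like that of *Pax6*, by Pearson's r over all 16 arrays, were *Lgalsl* (0.9914), *Man2a1* (0.9906), *Sorl1* (0.9896), *Sytl4* (0.9884) and *Nucb2* (0.9883). *Man2a1* encodes a Golgi mannosidase, *Sorl1* a sorting receptor, *Sytl4* the granule protein granuphilin and *Nucb2* the precursor of nesfatin. All were lower in Pax5 cells, with log2 differences of -1.81, -0.99, -0.78, -3.08 and -0.97 in that order. Such r values are set mostly by the gap between the groups. Within the 8 experiments, the difference of *Sorl1* correlated with that of *Pax6* at 0.952 and those of the other 4 at 0.507 to 0.565. For *Pax5*, the most like were *Serinc5* (0.9953), *Cabp1* (0.9949), *Slco4a1* (0.9945), *Sgms2* (0.9945) and *Cck* (0.9942), the last the gene of cholecystokinin. They were higher by 2.78, 1.79, 1.73, 2.63 and 2.79 on the log2 scale, and their differences correlated with those of *Pax5* at 0.354 to 0.638 over the 8 experiments. The share of all clusters with differences as closely correlated is not given here. These correlations, that of *Sorl1* with *Pax6* included, are therefore not read as links between genes.

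Genes that Pax6 is known to activate in β cells were called in both directions. Of 11 of 15 found by name, 3 were higher, 2 were lower and 6 were not called, with a median log2 difference of -0.06, beside 32.4% called (15.7% higher and 16.7% lower) and a median of 0.00 over all named genes. *Slc2a2*, the glucose transporter GLUT2, had the largest change of the list and averaged 16.68 ± 0.107 in Pax5 arrays and 17.63 ± 0.148 in GFP arrays (SD, n = 8 each), a log2 difference of -0.95 (SE 0.0742, adjusted p = 1e-07 in limma). *Slc30a8*, the zinc transporter of insulin granules, was lower by a log2 difference of -0.40 (SE 0.0776, adjusted p = 0.000862 in limma). Both were lower in 8 of 8 experiments, with groups that did not overlap. *Slc2a2* was lowest among GFP arrays in experiment 1, at 17.31. *Glp1r*, the GLP-1 receptor, *Scg5*, a chaperone of a prohormone convertase, and *Pcsk1n*, an inhibitor of another, rose by 0.37, 0.25 and 0.20 on the log2 scale. *Pcsk1n* was not called without experiment 2 or 7 (adjusted p = 0.0734 and 0.0613 in limma). The insulin genes did not pass the test: *Ins1* differed by -0.06 (adjusted p = 0.479 in limma) and *Ins2* by 0.11 (adjusted p = 0.325 in limma). *Ins1* was near the top of the signal range at 18.23 in Pax5 arrays and 18.30 in GFP arrays, against array maxima of 19.08 to 19.24, and whether its signal was saturated was not tested. *Pdx1*, the β cell homeodomain factor, differed by -0.16 (adjusted p = 0.135 in limma), and *Nkx6-1*, *Pcsk2* and *Gipr* were not called either. *Mafa*, *Pcsk1* and *G6pc2* were not found by name.

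Among the 4 hormones of the other islet cells, *Gcg* rose and 3 were not called, beside 15.7% of all named genes higher. The proglucagon gene, which Pax6 activates in α cells, averaged 18.09 ± 0.118 in Pax5 arrays and 17.35 ± 0.111 in GFP arrays (SD, n = 8 each). Its log2 difference was 0.74 (SE 0.0788, adjusted p = 3e-06 in limma), it was higher in 8 of 8 experiments, and the groups did not overlap. Thus *Gcg* was higher in the arrays in which *Pax6* was lower. *Sst* (0.01), *Ghrl* (0.00) and *Ppy* (0.22) were not called. *Ppy* was near the threshold (adjusted p = 0.0583 in limma), and under 6 of 15 alternatives 2 of the 4 hormones were called higher. The α cell markers *Irx2* and *Ttr* were below the median brightness and not called.

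Islet transcription factors that act around Pax4 and Pax6 were found for 10 of 17 symbols, of which 4 were higher, 1 was lower and 5 were not called, beside 15.7% higher and 16.7% lower among all named genes. The median log2 difference of the 10 was 0.00, as over all named genes. *Nkx2-2*, a homeodomain factor needed for β cells, averaged 8.491 ± 0.126 in Pax5 arrays and 8.988 ± 0.167 in GFP arrays (SD, n = 8 each), a log2 difference of -0.50 (SE 0.091, adjusted p = 0.000565 in limma) with all experiments lower. *Neurod1*, a basic helix-loop-helix activator of the insulin gene, was higher by 0.29 (SE 0.0709, adjusted p = 0.00569 in limma) in 8 of 8 experiments. *Pknox1*, *Hnf4a* and *Isl1* rose by 0.33, 0.27 and 0.22. The adjusted p of *Hnf4a* was 0.0471 in limma, near the threshold, and its groups overlapped. Leaving out experiment 1, 3, 4, 6 or 8 ended its call (adjusted p = 0.061 to 0.131 in limma), and leaving out experiment 1, 3, 4 or 6 ended that of *Isl1* (0.0565 to 0.0913). *Neurog3*, the factor of endocrine progenitors that acts upstream of Pax4, was dim and differed by 0.05 (adjusted p = 0.611 in limma).

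Proteins that partner with Pax factors were found for 12 of 16 symbols, of which 6 were higher, 1 was lower and 5 were not called, with a median log2 difference of 0.25, beside 15.7% higher, 16.7% lower and a median of 0.00 over all named genes. *Ets1*, which Pax5 recruits to DNA in B cells, had the largest rise. It averaged 8.122 ± 0.193 in Pax5 arrays and 6.65 ± 0.184 in GFP arrays (SD, n = 8 each), a log2 difference of 1.47 (SE 0.104, adjusted p = 3.44e-08 in limma), and the groups did not overlap. Groucho co-repressors, which bind a short motif of Pax2, Pax5 and Pax8, moved in both directions. *Tle4* fell to 11.18 ± 0.124 in Pax5 arrays, against 12.23 ± 0.129 in GFP arrays (SD, n = 8 each), a log2 difference of -1.05 (SE 0.0808, adjusted p = 8.61e-08 in limma). *Tle1* rose by 0.66 (SE 0.0847, adjusted p = 2.24e-05 in limma), *Tle2*, which is dim, by 0.44 and *Tle5*, a short member that lacks the repeat domain, by 0.25. *Tle3* differed by 0.27 and did not pass (adjusted p = 0.0616 in limma). *Smarca4*, the ATPase of a chromatin remodelling complex, rose by 0.64 (SE 0.108, adjusted p = 0.000276 in limma), with groups that overlapped.

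Of 13 known targets of Pax2, Pax5 and Pax8 in kidney, thyroid and midbrain, 11 were found by name, of which 1 was higher, 2 were lower and 8 were not called, beside 32.4% of all named genes called. The count is thus near that of all named genes. *Ret*, the receptor of glial cell line-derived neurotrophic factor and a Pax2 and Pax8 target in the developing kidney, was the gene that rose. It averaged 11.14 ± 0.16 in Pax5 arrays and 8.779 ± 0.108 in GFP arrays (SD, n = 8 each), a log2 difference of 2.36 (SE 0.0798, adjusted p = 1.03e-11 in limma) with every experiment between 2.09 and 2.66. Its ligand gene *Gdnf* differed by 0.00 and was not called. *Wnt4*, a kidney tubule signal, and *Gata3*, a nephric duct factor, fell by 0.70 (SE 0.0951, adjusted p = 3.52e-05 in limma) and 0.30 (SE 0.0666, adjusted p = 0.00244 in limma). The thyroid genes *Tg* and *Slc5a5* and the midbrain genes *En2*, *Wnt1* and *Fgf8* were dim and not called.

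Genes of the sine oculis, eyes absent and dachshund families, which act with Pax factors in eye, ear and kidney, were found for 7 of 12 symbols. *Eya3* rose by 0.29 (SE 0.0785, adjusted p = 0.00981 in limma) and *Six2* fell by 0.19 (SE 0.0647, adjusted p = 0.0343 in limma), and 5 were not called, a count near the 32.4% called among all named genes. *Six2* was not called without experiment 1, 2, 3, 4, 6 or 7 (adjusted p = 0.0592 to 0.0822 in limma). The median log2 difference of the 7 was 0.13.

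**Figure D4:**
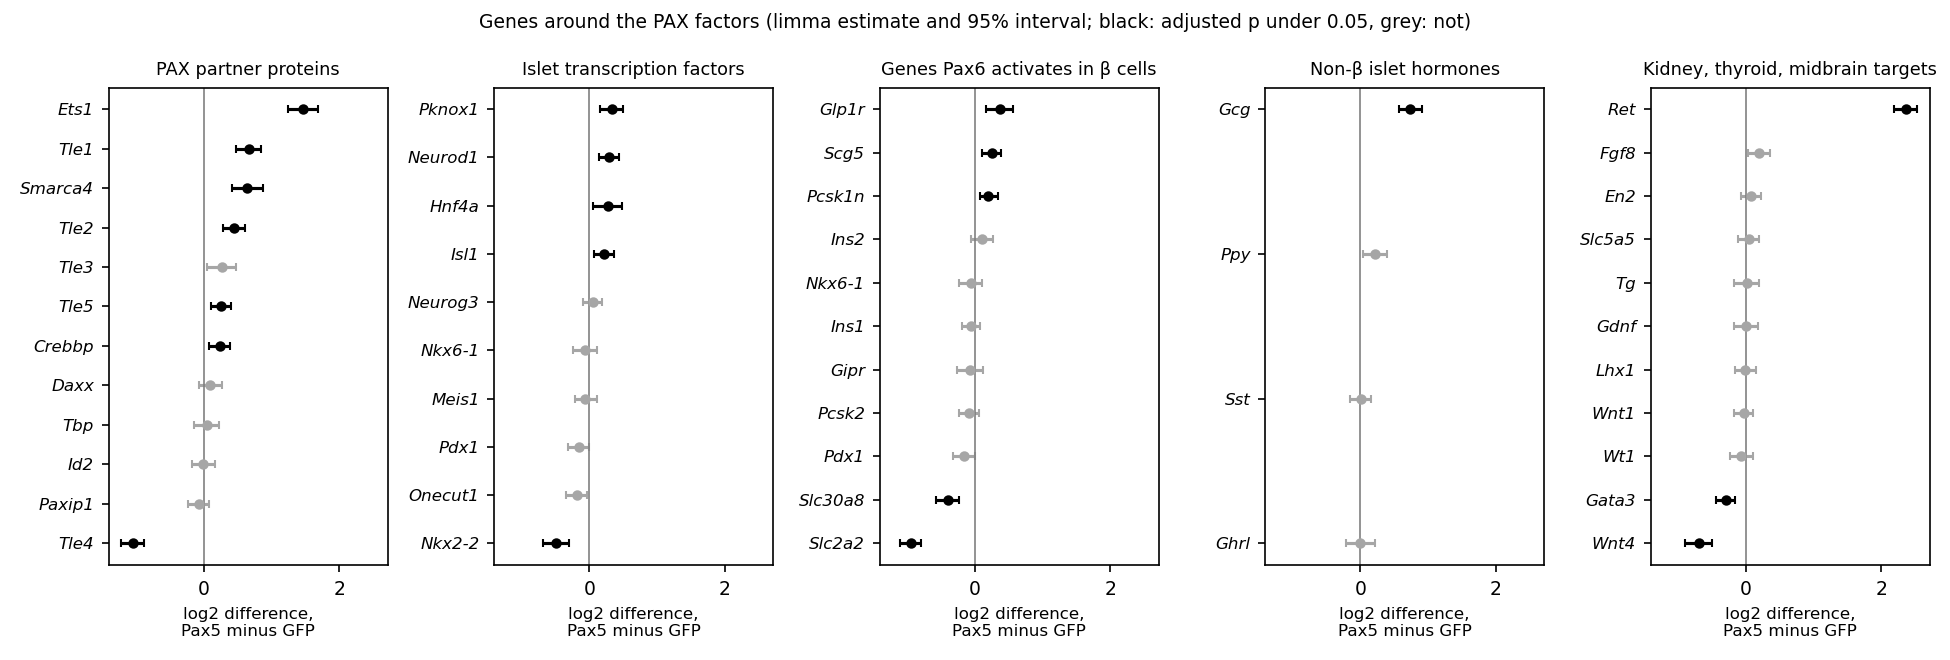
Log2 difference, Pax5 minus GFP (horizontal axis), with its 95% interval from limma, of named genes (vertical axis) in 5 lists around the Pax factors. Black marks an adjusted p under 0.05 and grey none. *Ret* (2.36) and *Ets1* (1.47) are farthest to the right and *Tle4* (-1.05) and *Slc2a2* (-0.95) farthest to the left.

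The genes next to the paired box genes on the chromosome were taken from the GRCr8 gene table, as the nearest 2 protein-coding genes on either side. Of 20 such genes, 14 were found by name, of which 0 were higher and 3 were lower, with a median log2 difference of -0.06. Of all named genes, 15.7% were higher and 16.7% lower, and 3 of 14 lower is not read as a property of the neighbours. Next to *Pax6*, *Rcn1*, which encodes a calcium-binding protein of the endoplasmic reticulum, averaged 13.70 ± 0.075 in Pax5 arrays and 14.85 ± 0.203 in GFP arrays (SD, n = 8 each). Its log2 difference was -1.15 (SE 0.0858, adjusted p = 6.44e-08 in limma), and it was lower in 8 of 8 experiments. *Elp4*, on the other side of *Pax6*, encodes an Elongator subunit, and its introns hold *Pax6* enhancers in mouse and human. It differed by -0.04 (SE 0.0633, adjusted p = 0.717 in limma), and *Them7* by 0.15 (adjusted p = 0.141 in limma). Thus 1 of the 3 measured neighbours of *Pax6* fell and the other 2 were not called.

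Beside *Pax8*, *Cacna1b*, the pore of an N-type calcium channel, was lower by a log2 difference of -0.58 (SE 0.108, adjusted p = 0.000611 in limma), while *Il1rn* (-0.10) and *Psd4* (0.01) were not called. Beside *Pax5*, *Zcchc7* was lower by -0.21 (SE 0.0747, adjusted p = 0.0445 in limma), and *Grhpr* differed by -0.28 and did not pass (adjusted p = 0.0537 in limma). *Zcchc7* was not called without experiment 1, 2, 3, 4, 6 or 8 (adjusted p = 0.0509 to 0.115 in limma). The neighbours of *Pax4* (*Fscn3*, *Snd1* and *Lipogenin*) and of *Pax2* (*Ndufb8*, *Hif1an* and *Slf2*) had log2 differences between -0.16 and 0.10, and none was called.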

How the data were processed

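Total RNA of the transduced INS1 β cells was measured on 1-colour Affymetrix arrays. The deposited values are log2 signals per transcript cluster, for which the authors ran RMA (background correction, normalization between arrays, summary of probes) in Transcriptome Analysis Console (version not given in the sources used here). All 23188 clusters entered the fit with no filter. The platform annotation names 15049 clusters with 1 symbol and leaves 8139 unnamed here. Scanner files were not used here.

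Group differences were fitted in limma 3.58.1 under R 4.3.3 (lmFit, eBayes), blocked on the experiment number, and p was adjusted after Benjamini-Hochberg over all clusters, with calls at an adjusted p under 0.05. Intervals are 95%. Single genes were also tested by exact sign flips over the 8 experiments (256 arrangements). The pairing comes from the experiment numbers in the labels. Checked on the arrays, deviations from group means correlated between -0.749 and -0.704 for the same number and between -0.0893 and 0.259 for different numbers. Arrays of the same number thus deviated in opposite directions, where a shift shared by both would make them deviate together. Why was not tested. At the same spread within groups, such deviations give wider within-experiment differences than unrelated ones would. In either direction, 7108 clusters were called with the block and 10584 without it. The steps were tested on simulated data in which both arrays of a number shared a shift, unlike the opposite deviations of the arrays here. Alternatives were no block, median centring or quantile normalization of arrays, array weights, eBayes with trend and robust, all clusters but the dimmest 30%, each experiment left out, and the methods' t-test, which is paired. The regression of each experiment on the others was added after values were seen.

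Members and lists were chosen with earlier results of these data known, and lists are described by counts only. The genes named are all paired box genes on the array, list members past the threshold (of more than 6, the 6 with the lowest p), all locus neighbours, the 5 clusters most like *Pax6* and *Pax5*, and *Slc2a2*, *Ins1*, *Ins2*, *Mafa*, *Pdx1* and *Gcg*. Some items of the rule and lists are not reported here. Other genes, such as *Tle3*, were named outside this rule, after their values were seen. Protein sequences were not analysed here.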

Additional observations from a re-analysis of the deposited data

Results flagged for a closer look

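In 4 of 150 groups of 8 arrays (75 genes, each in Pax5 and in GFP arrays), a single array stood apart by Dixon's criterion, which chance alone meets in about 1 in 20 groups, or about 7.5 here. None was a paired box gene. *Lipogenin* in the Pax5 array of experiment 8 was the lowest at 8.87, with the next at 9.30. *Slc2a2* in the GFP array of experiment 1 was the lowest at 17.31, with the next at 17.59. In GFP arrays, *Eya2* was highest in experiment 2 at 4.68 (next 4.59), and *Slc5a5* was highest in experiment 5 at 4.55 (next 4.4).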

How the results depend on the processing

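Under every alternative run, *Pax5*, *Pax6*, *Pax4*, *Pax2* and *Pax8* kept their direction and their side of the threshold, with log2 differences of 9.19 to 9.43, -0.77 to -0.70, 0.36 to 0.46 (adjusted p 8.89e-06 to 0.011 in limma and the methods' t-test), -0.06 to -0.02 and -0.10 to -0.06. *Pax4*, *Pax2* and *Pax8* gave no value with the dimmest 30% of clusters left out, and the lowest-mean cluster of a symbol gave none, since each symbol has 1. Without the block for the replicate number, 5174 clusters were called higher and 5410 lower, against 3379 and 3729 with it. The methods' t-test called 8753 clusters unadjusted and 6073 after Benjamini-Hochberg adjustment. Leaving out each experiment gave 2946 to 3225 higher, 3264 to 3573 lower and 6210 to 6798 in all. The correlation of *Pax4* with *Pax5* differences then ranged from 0.486 to 0.924 and passed the adjustment only without experiment 8. Of the other named genes, *Zcchc7* lost its call under 10 of 15 alternatives, *Hnf4a* and *Six2* under 7, *Isl1* under 4, *Crebbp* under 3 (without experiment 3, 4 or 6, adjusted p = 0.0516 to 0.0618 in limma), *Pcsk1n* under 2, *Glp1r* under the methods' t-test (adjusted p = 0.0522) and *Pax7* under 1 (adjusted p = 0.0554 in limma without experiment 2). Without spot-level background values, whether the dim genes were above background is unknown.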
